A study of Mus musculus with 10 samples.

Results

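The genes described here make, block or bind the machinery that turns plasminogen into the protease plasmin. They are the urokinase gene Plau, its receptor gene Plaur, the activator inhibitor genes Serpinb2 and Serpine2, and the plasminogen receptor genes Plgrkt, Anxa2, S100a10 and Eno1. Members were the rows of the deposited table with one of these symbols, and all 8 were found among 16936 protein-coding genes. RNA came from mouse bone marrow-derived macrophages, cells grown from marrow for 7 days with GM-CSF, a cytokine that gives cultures with macrophage and dendritic cell features, at 50 ng/mL. Of the 10 samples, 5 were left untreated and 5 received PLG, which the series' design text gives as human plasminogen, for 24 h. All samples shared these culture conditions, the labels give no strain or age, and they name no vehicle or control protein. The title concerns a lipid cargo of plasminogen and the receptor Tlr2, apart from protease activity, and no sample here blocks either.

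Plasminogen circulates as an inactive precursor. Urokinase, bound to its receptor on the cell surface, cleaves it to plasmin, which degrades fibrin and other matrix proteins and releases growth factors. Serpins such as the products of Serpinb2 and Serpine2 inactivate the activators by forming covalent complexes with them, and surface proteins that expose lysines hold plasminogen close to its activator. In macrophages this system is known for its part in migration through tissue and in clearance of fibrin.

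Expression was given as FPKM, read fragments scaled by gene length and by depth. Depth, worked out from the smallest FPKM steps of each sample, was 28426106 to 64214553 reads on the listed genes per sample, and each member except Serpine2 rested on at least 261 reads in every sample. Comparisons used limma on log2(FPKM + 1), with p-values adjusted over the 9997 genes that reached 1 FPKM in at least 5 samples. Fold changes on that scale understate those of low genes. With PLG, 60.4% of the tested genes passed at an adjusted p under 0.05, and the groups did not overlap for 47.2% of them. The labels tie no replicate to a mouse or a culture of its own, and the spread behind each p-value may therefore be technical. The samples differed in repeat-like gene models, of which Gm10800 ranged from 1339 to 59685 FPKM and was lowest in PLG 3, PLG 4 and untreated 2.

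The defining markers fitted the labelled cells in part. All 8 macrophage markers reached 1 FPKM, with summed levels of 5874 to 7395 FPKM in untreated and 3137 to 3243 FPKM in PLG samples, most of it from the lysozyme gene Lyz2. The list divided, since the group means of Adgre1 were 80.0 and 177 FPKM and those of Cd14 33.7 and 508 FPKM, untreated first. All 6 dendritic cell markers reached 1 FPKM too, at 297 to 339 FPKM in untreated and 675 to 746 FPKM in PLG samples, and Ccr7 made up most of the PLG level. This list divided as well, with Itgax at 270.2 and 156 FPKM and Cd209a at 2.995 and 0.0142 FPKM. The 5 fibroblast markers stayed at a sum of 0.2 to 1.17 FPKM over all samples, the 3 B cell markers at 0.177 to 0.72 FPKM and the 4 T cell markers at 0.09 to 0.735 FPKM. The sum over 6 neutrophil markers was 8.04 to 18.1 FPKM in untreated and 15.5 to 23.8 FPKM in PLG samples, and that over 5 mast cell and basophil markers 2.99 to 5.10 and 6.02 to 7.23 FPKM. The 4 endothelial markers summed to 4.98 to 6.69 FPKM, almost all from Kdr. Macrophage and dendritic markers thus moved with the treatment, and their part in the results below was not tested. In bulk RNA, fewer cells of a type and less RNA per cell cannot be told apart.

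Of the 8 members, the activator Plau and its receptor Plaur fell with PLG, while both inhibitors, Serpinb2 and Serpine2, rose. The receptor gene Eno1 rose by a small amount, and Plgrkt, Anxa2 and S100a10 did not pass the test. Among the 7 members that met the expression filter, 2 rose and 2 fell, where 29.1% of all tested genes rose, 31.3% fell and 60.4% did either. These shares are near that background, so the count of calls is no result about the members, and the sizes of the changes are given instead.

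**Figure D1:**
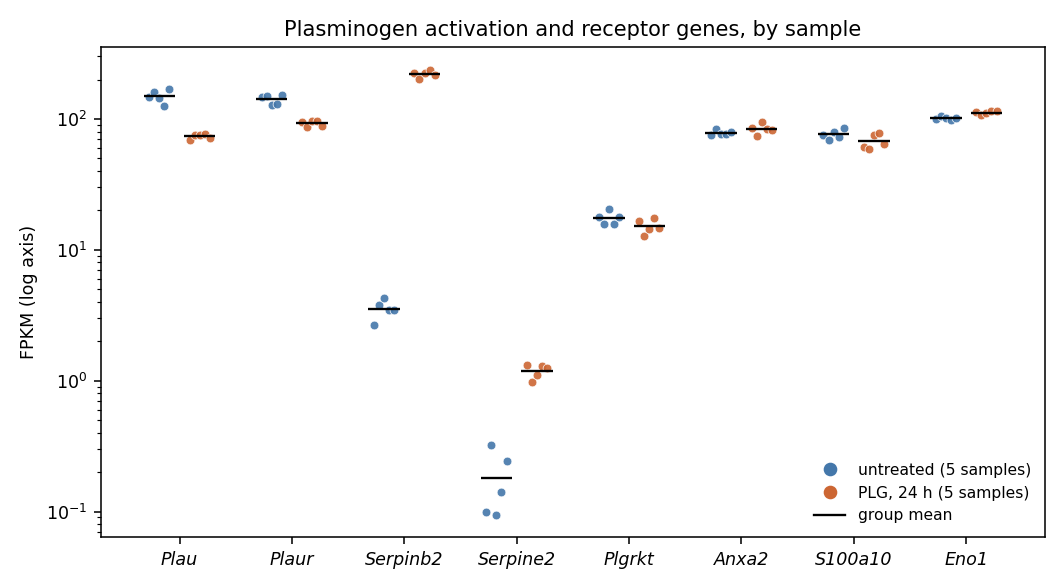
FPKM of the 8 members on a log axis, 1 point per sample with the 5 untreated samples in blue and the 5 PLG samples in orange, and a line at the group mean. Serpinb2 moves from the middle of the axis (2.675 to 4.30 FPKM) to the top (202 to 238 FPKM), while the Plau and Plaur points with PLG lie below those of every untreated sample.

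The plasminogen activator gene Plau (ENSMUSG00000021822.3, GRCm38 chromosome 14, 20836660 to 20843385, plus strand) had the highest mean FPKM of the members in untreated samples, although Plaur was above it in untreated 1 and 4. Untreated samples 1 to 5 held 147, 161, 145, 125 and 169.5 FPKM, and PLG samples 1 to 5 held 69.2, 75.8, 75.8, 77.2 and 71.5 FPKM. All PLG samples were below all untreated ones, and they spread less. The means were 149.6 ± 17.1 FPKM (SD, n = 5) and 73.9 ± 3.38 FPKM (SD, n = 5), a plain ratio of 2.02 in favour of untreated and a log2 difference of -1.001 with an SE of 0.07 (limma adjusted p = 3.32e-08). Of all tested genes, 5.75% fell by as much or more.

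Plaur (chromosome 7, 24462484 to 24475968, plus strand) encodes the receptor that anchors urokinase at the cell surface. It stood at 147, 149, 128, 130.2 and 152 FPKM in untreated samples 1 to 5 and at 94.9, 86.6, 96.8, 96.9 and 89.0 FPKM in PLG samples 1 to 5. The groups did not overlap. The difference on the log2 scale was -0.60 with an SE of 0.06 (limma adjusted p = 8.30e-07), and the plain ratio of the means 1.52. Receptor RNA thus fell less than that of its ligand, as the ratio of both within a sample shows below.

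Serpinb2 (ENSMUSG00000062345.10, GRCm38 chromosome 1, 107511423 to 107535478, plus strand) encodes plasminogen activator inhibitor type 2, a serpin of activated monocytes and macrophages that is found largely inside the cell. Untreated samples 1 to 5 held 2.675, 3.78, 4.30, 3.475 and 3.44 FPKM. PLG samples 1 to 5 held 226, 202, 224, 238 and 218 FPKM, so that every treated sample was far above every untreated one. The means of 3.53 ± 0.593 and 222 ± 13 FPKM (SD, n = 5 each) differ by a plain ratio of 62.7. On the log2 scale this was 5.63 with an SE of 0.08 (limma adjusted p = 7.84e-15), and the rise ranked 13 among the 9997 tested genes. The reads behind it came to 1512 over the untreated and 126093 over the PLG samples. On the same strand GENCODE places Serpinb10, a polymorphic pseudogene, over 6476 bases of the Serpinb2 locus, and reads in that stretch may be divided between them. Serpinb8, the gene of the table that starts within 250 kb of Serpinb2 (chromosome 1, 107590006 to 107610484), stood at 10.1 ± 1.82 FPKM in untreated and 8.86 ± 0.978 FPKM in PLG samples (SD, n = 5 each) and did not pass (log2 fold change -0.16, limma adjusted p = 0.211).

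Serpine2 (ENSMUSG00000026249.10, GRCm38 chromosome 1, 79794197 to 79861180, minus strand) encodes protease nexin 1, a secreted serpin that inhibits urokinase, tissue activator, plasmin and thrombin. It was a low gene in these cells. Untreated samples 1 to 5 held 0.099, 0.32, 0.094, 0.14 and 0.244 FPKM, and PLG samples 1 to 5 held 1.31, 0.969, 1.11, 1.285 and 1.25 FPKM, with no overlap. It reached 1 FPKM in 4 samples and so missed the filter. In the fit without a filter, where 39.9% of 16927 genes passed and 19.8% were higher with PLG, it rose by 0.89 on the log2 scale with an SE of 0.07 (limma adjusted p = 2.06e-06), and the plain ratio of the means was 6.602. Its size depends on the added constant: the log2 fold change was 0.26 with 5 FPKM added and 2.26 with 0.1 FPKM added. Voom on reads recovered from the FPKM steps gave 2.91, and the gene passed in all 21 alternatives. Fibroblasts express Serpine2 too. The mean levels of their markers Dcn (0.0066 FPKM untreated, 0.133 FPKM with PLG), Col1a2 (0.0516 and 0.131 FPKM) and Lum (0 and 0.0428 FPKM) were higher with PLG, those of Col1a1 were 0.232 and 0.26 FPKM, and that of Pdgfra was lower (0.106 and 0.0286 FPKM). Their part in the Serpine2 result was not tested.

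The starts of the inhibitor genes that rose differ in base composition from each other, and they are shown beside that of Plaur, which fell. Windows of 250 bases before the RefSeq start on GRCm38.p6 were found for 6 of the 8 members. Serpinb2 has 2 RefSeq starts, of which the upstream one is used. The windows are Serpinb2 at chr1:107511173-107511422 (plus strand), Serpine2 at chr1:79858666-79858915 (minus strand) and Plaur at chr7:24462233-24462482 (plus strand), each written 5′ to 3′ on the strand of the gene. The Serpine2 window lies inside the gene model behind its FPKM, which begins at 79861180 on the minus strand. It therefore precedes a RefSeq start within that model and not the start of the model. Capitals mark matches on either strand to the motifs searched.
Serpinb2: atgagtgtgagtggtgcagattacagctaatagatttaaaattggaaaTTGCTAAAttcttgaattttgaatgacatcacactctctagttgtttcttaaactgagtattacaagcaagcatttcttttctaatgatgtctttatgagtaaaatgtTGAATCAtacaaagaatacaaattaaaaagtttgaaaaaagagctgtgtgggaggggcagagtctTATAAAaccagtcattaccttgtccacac
Serpine2: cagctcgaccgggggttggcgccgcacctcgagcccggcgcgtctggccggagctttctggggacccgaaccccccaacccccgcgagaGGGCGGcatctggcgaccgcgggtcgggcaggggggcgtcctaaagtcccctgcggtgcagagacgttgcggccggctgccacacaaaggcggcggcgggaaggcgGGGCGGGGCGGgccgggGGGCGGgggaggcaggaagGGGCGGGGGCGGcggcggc
Plaur: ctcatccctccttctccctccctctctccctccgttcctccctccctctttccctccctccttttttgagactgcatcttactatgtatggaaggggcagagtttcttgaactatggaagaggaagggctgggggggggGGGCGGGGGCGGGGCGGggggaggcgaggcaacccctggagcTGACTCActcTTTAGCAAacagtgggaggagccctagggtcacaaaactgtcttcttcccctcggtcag
The Serpinb2 window had 32.4% G and C and the Serpine2 window 78.8%, on either side of the middle range of all 32851 windows, whose quartiles were 45.2% and 61.2%. Serpinb2 held a TATA box (TATAAA) with its first base at position -29 from the start, a motif in 12.4% of windows. It also held a C/EBP motif (TTGCNNAA, 9.56% of windows) at -202. The AP-1 motif TGANTCA, present in 6.75% of windows, stood at -94 in Serpinb2, at -69 in Plaur and at -95 in Anxa2, thus in a gene that rose, a gene that fell and a gene that did not pass. Plaur also had a C/EBP match at -59 and 3 GC boxes (GGGCGG, 32.7% of windows), which overlap or adjoin each other. Serpine2 held 6 GC boxes, some of them overlapping, and none of the other motifs. The CRE motif TGACGTCA (1.55% of windows), the PU.1 motif GAGGAAGT (2.44%) and the NF-kB consensus (7.25%) were in none of the windows of these 6 genes. A match describes the letters and not a bound site.

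The balance between activator and inhibitor RNA turned over. The ratio of Plau to Serpinb2 FPKM was 54.9, 42.7, 33.7, 36.0 and 49.3 in untreated samples 1 to 5. With PLG it was 0.307, 0.375, 0.338, 0.324 and 0.328 in samples 1 to 5. Every untreated sample held more Plau than Serpinb2, and every PLG sample less. On the log2 scale the mean went from 5.41 ± 0.30 to -1.58 ± 0.11 (SD, n = 5 each), a change of the ratio by 128-fold (exact two-sided permutation test, p = 0.00794, the smallest that 5 against 5 samples allow). Adjusted over the 5 ratios computed, p = 0.00992 in this exact permutation test. Both genes had passed on their own, so the test adds no separate evidence.

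Against Serpine2 the activator stayed the more abundant RNA. The ratio of Plau to Serpine2 was 505 to 1541 in untreated and 52.8 to 78.3 in PLG samples, which did not overlap (a 14.9-fold change, exact permutation p = 0.00794). With 1 FPKM added to both genes the log2 difference was -1.89 in place of -3.90. Serpine2 added little to the inhibitor total: Plau over the sum of Serpinb2 and Serpine2 was 32.9 to 52.9 in untreated and 0.305 to 0.373 in PLG samples, a 122-fold change (exact permutation p = 0.00794). Levels of ratios rest on the lengths by which the table divides, 2367 bases for Plau and 8287 for Serpine2. With the longest coding transcript in GENCODE M21 as length, the geometric mean of Plau to Serpine2 was 252.1 in untreated and 16.9 with PLG, in place of 935 and 62.7. For Plau to Serpinb2 it was 36.6 and 0.287, in place of 42.6 and 0.334, and the change between groups stays the same by construction. With those lengths Plau to Plaur was 0.614 and 0.463, in place of 1.06 and 0.796, and Anxa2 to S100a10 was 1.49 and 1.81, in place of 1.03 and 1.25.

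Activator and receptor RNA parted slightly. The ratio of Plau to Plaur was 0.998, 1.08, 1.13, 0.962 and 1.12 in untreated samples 1 to 5 and 0.729, 0.876, 0.783, 0.796 and 0.803 in PLG samples 1 to 5. The groups did not overlap, and the ratio was 1.33-fold lower with PLG (exact permutation p = 0.00794). The fall in Plau was thus larger than that in Plaur within these samples.

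**Figure D2:**
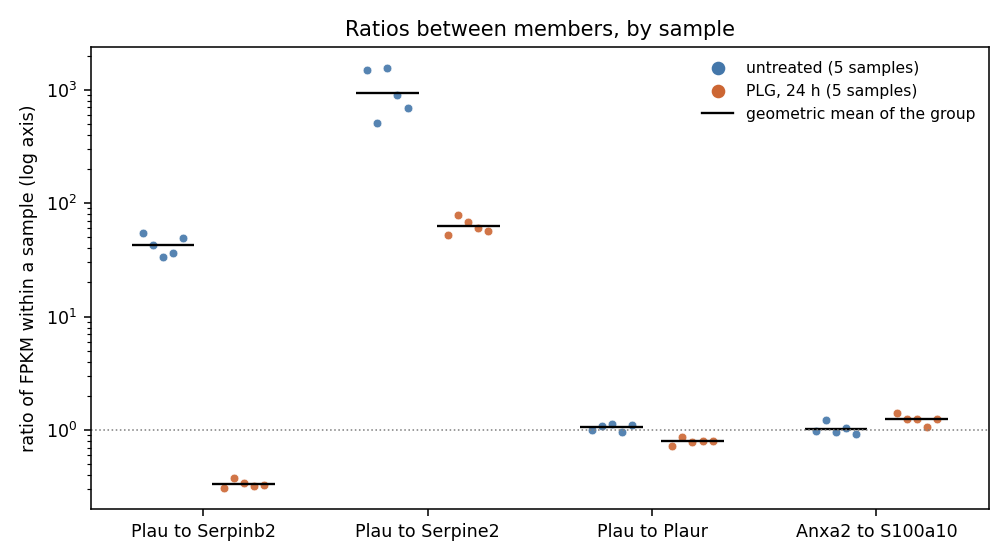
Of the 5 ratios of FPKM between members, 4 are shown for each sample on a log axis, with untreated samples in blue, PLG samples in orange and a line at the geometric mean of each group; the dotted line marks equal FPKM. The ratio of Plau to Serpinb2 crosses the dotted line, from 33.7 or more without PLG to 0.375 or less with it, while that of Plau to Serpine2 falls but stays at 52.8 or more.

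Among the plasminogen receptors, Plgrkt encodes a membrane protein whose C-terminal lysine binds plasminogen. Plgrkt (chromosome 19, 29348599 to 29367390, minus strand) was at 17.7, 15.7, 20.5, 15.7 and 17.9 FPKM in untreated samples 1 to 5. PLG samples 1 to 5 held 16.5, 12.8, 14.5, 17.5 and 14.6 FPKM, and the groups overlapped. The log2 fold change was -0.19 with a 95% interval of -0.39 to -0.00038 and did not pass (limma adjusted p = 0.0774). It passed as lower in 6 of 23 alternatives, among them without untreated 2 (limma adjusted p = 0.0478) or PLG 4 (0.0331).

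Anxa2 and S100a10 encode annexin A2 and its light chain p11, which form a tetramer at the cell surface that binds both plasminogen and tissue activator. Anxa2 (chromosome 9, 69453620 to 69491795, plus strand) held 74.8, 83.8, 76.7, 76.2 and 79.3 FPKM in untreated and 85.6, 73.6, 94.7, 83.3 and 81.8 FPKM in PLG samples 1 to 5. S100a10 (chromosome 3, 93555080 to 93564643, plus strand) held 75.8, 68.9, 79.3, 72.3 and 85.4 FPKM in untreated and 60.6, 59.1, 74.9, 78.0 and 64.9 FPKM in PLG samples 1 to 5. For both genes the groups overlapped.

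Neither passed alone: the log2 fold change of Anxa2 was 0.10 (95% interval -0.04 to 0.23, limma adjusted p = 0.195) and that of S100a10 -0.18 (95% interval -0.36 to -0.0021, limma adjusted p = 0.0748). S100a10 passed as lower in 7 of 23 alternatives, among them without untreated 2 (limma adjusted p = 0.0435), PLG 3 (0.0398) or PLG 4 (0.0218). Anxa2 passed as higher in 2 of 23, among them without PLG 2 (limma adjusted p = 0.0407), and its sign turned with quantile normalization (-0.11). GENCODE lists an antisense gene, Gm16144, over 2570 bases of the Anxa2 locus, and no source used here states whether counting used the strand, so their reads cannot be told apart.

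The ratio of the annexin to its light chain did differ. Anxa2 to S100a10 stood at 0.987, 1.22, 0.968, 1.05 and 0.928 in untreated samples 1 to 5 and at 1.41, 1.25, 1.26, 1.07 and 1.26 in PLG samples 1 to 5. PLG 4, at 1.07, lay below untreated 2, at 1.22, and above the other untreated samples, so the groups overlapped by this pair. The ratio was 1.21-fold higher with PLG (exact two-sided permutation p = 0.0159, the same when adjusted over the 5 ratios). A ratio within a sample does not change with the sample's scaling. Here it shows that the genes did not change alike, not which of them moved or whether both did.

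Eno1 encodes alpha-enolase, a glycolytic enzyme that also appears at the cell surface, where it binds plasminogen through a C-terminal lysine. Eno1 (ENSMUSG00000063524.13, GRCm38 chromosome 4, 150236721 to 150248879, plus strand) held 99.0, 106, 101, 98.9 and 101 FPKM in untreated and 113, 107, 110.1, 115 and 114 FPKM in PLG samples 1 to 5. The groups lay side by side without overlap, with 105.9 FPKM in the highest untreated and 106.5 FPKM in the lowest PLG sample. The rise was small, 0.14 on the log2 scale with an SE of 0.04 (limma adjusted p = 0.00776), its sign turned with quantile normalization (-0.08), and 35.1% of all tested genes rose by as much or more. Scaling to a common sum ended the call (limma adjusted p = 0.177, and 0.0835 after removal of the repeat-like models). Its level is uncertain as well, since 3 annotated genes hold near-identical copies of the Eno1 transcript. Eno1b is 99.5% identical over 1736 bases, and the processed pseudogenes Gm4735 and Gm5855 are 99.6% identical over 1302 and 96.3% over 1306 bases. No other member had a copy in another annotated gene at 95% identity over 100 bases.

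In the order of the members by FPKM, which is per length, Serpinb2 moved with PLG from the seventh place to the first. In untreated samples the means ran from Plau (149.6 FPKM) and Plaur (141 FPKM) over Eno1 (101 FPKM), Anxa2 (78.2 FPKM) and S100a10 (76.4 FPKM) to Plgrkt (17.5 FPKM), Serpinb2 (3.53 FPKM) and Serpine2 (0.179 FPKM). Ranges overlapped between Plau and Plaur and between Anxa2 and S100a10, and the other neighbours in this order did not overlap. The order depends on the lengths used, which for Eno1 are 5379 bases in the table and 2027 for its longest coding transcript. With the longest coding transcripts as lengths Eno1 would stand first in both groups, above Serpinb2 with PLG. Plaur and Anxa2 would then stand above Plau in both groups. By FPKM the order with PLG was Serpinb2 (222 FPKM), Eno1 (112 FPKM), Plaur (92.8 FPKM), Anxa2 (83.8 FPKM), Plau (73.9 FPKM), S100a10 (67.5 FPKM), Plgrkt (15.2 FPKM) and Serpine2 (1.18 FPKM). There the ranges of Plaur and Anxa2, of Anxa2 and Plau, and of Plau and S100a10 overlapped.

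Genes with the most similar profiles were sought by the root mean square difference of log2(FPKM + 1) over the 10 samples, each gene centred on its own mean. Nearest to Plau were Wls, at 0.069, the osteopontin gene Spp1, at 0.069, and Snx5, at 0.084. Spp1 went from 873 to 426 FPKM in the group means. Nearest to Plaur were the scavenger receptor gene Msr1, the macrophage elastase gene Mmp12 and Rbms1, at 0.052 to 0.053. Nearest to Serpinb2 were the glycolipid receptor gene Clec4e, at 0.17, and Cxcl1 and Susd2, at 0.20 and 0.21. For the other tested members, the nearest were Tirap, Ccm2 and Pbx2 to Plgrkt, at 0.074 to 0.083, Arpc2, Lsp1 and Mier1 to Anxa2, at 0.051 to 0.053, Egln2, Azin1 and Ptma to S100a10, at 0.049 to 0.077, and Pabpc1, Pi4k2a and Ik to Eno1, at 0.030 to 0.037. The distances describe these 10 samples, whose 2 groups set most of each profile.

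Other genes of the plasminogen system, taken from 6 lists with 48 members, moved both ways. Of these genes 43 were among the deposited rows and 30 met the filter. Among the tested genes 13 were higher and 14 lower with PLG, and 3 did not pass, against 29.1% higher and 31.3% lower among all tested genes. Their median log2 fold change was -0.16, and that of all tested genes -0.02. Plat, Mrc2, Mmp9 and F13a1 reached 1 FPKM in only the 5 samples of a single group, so passing the filter already required a difference. The lists were also written with earlier results of these data known. Neither these counts nor those by list below are therefore a result about the system. With a filter of 5 FPKM, 7 genes were higher. The calls of Sorl1 (lower, limma adjusted p = 0.0447), Ruvbl1 (higher, 0.0217) and Tgfb1 (lower, 0.0109) were lost in 12, 5 and 3 of 23 alternatives. Ruvbl1 lost its call without untreated 1 (limma adjusted p = 0.0563), untreated 4 (0.0573) or PLG 4 (0.0543), and Sorl1 without any of 7 single samples, namely untreated 1, 2, 4 and 5 and PLG 1, 2 and 3 (0.0541 to 0.109).

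**Figure D3:**
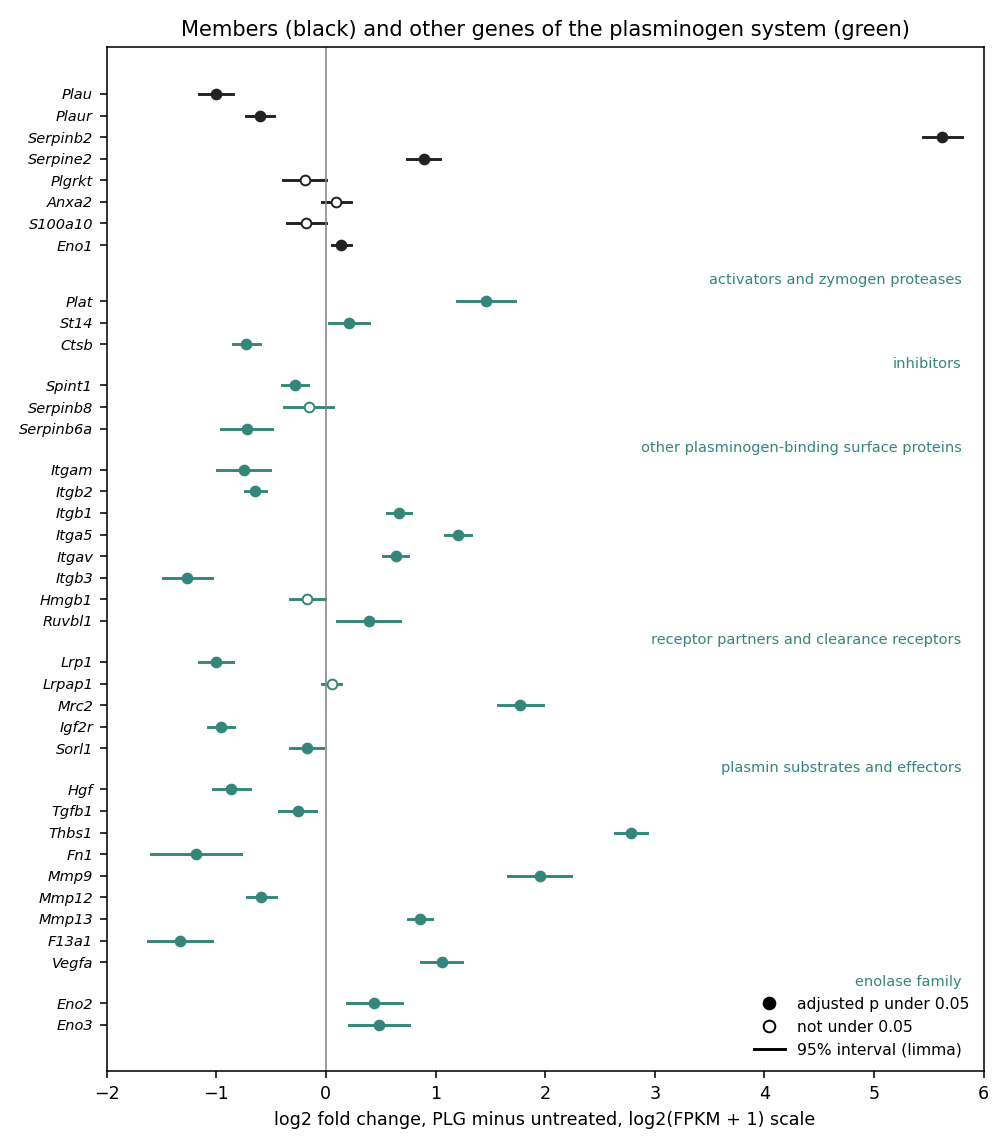
Log2 fold changes of PLG minus untreated on the log2(FPKM + 1) scale with 95% intervals from limma, for the 8 members in black and the 30 tested genes of the other lists in green; filled points have an adjusted p under 0.05. Serpinb2, at 5.63, lies beyond every other gene plotted, and Plgrkt, Anxa2 and S100a10 have open points near 0.

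The other activator gene rose from almost no signal. Plat, which encodes tissue plasminogen activator, was listed at 0 in 4 untreated samples and at 0.089 FPKM in untreated 3, which held all of the group's 20 reads. PLG samples 1 to 5 held 1.51, 1.22, 2.57, 1.77 and 2.15 FPKM from 2813 reads (log2 fold change 1.46, limma adjusted p = 1.66e-07). Every PLG sample was above every untreated sample, which meeting the filter through the PLG samples alone already required. Plat stayed far below Plau in level.

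**Figure D4:**
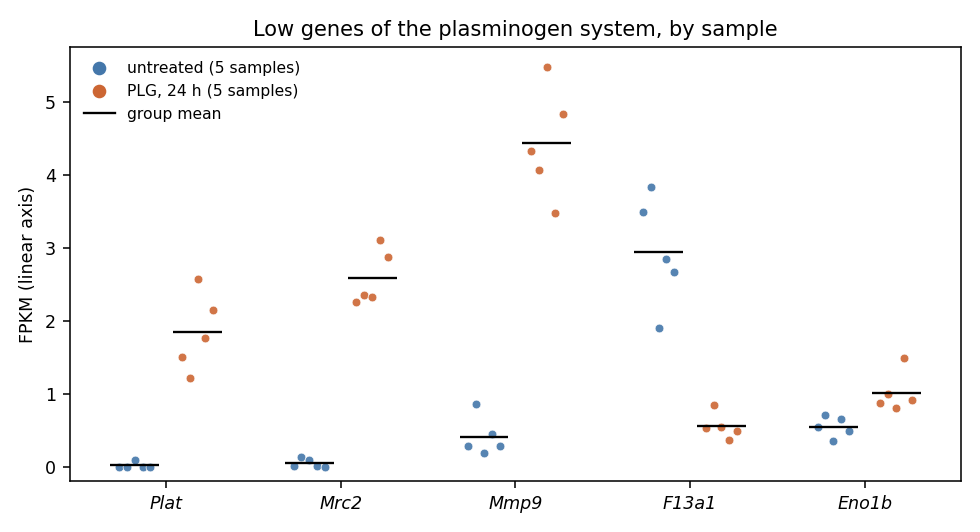
FPKM on a linear axis of 5 low genes of the plasminogen system, 1 point per sample, untreated in blue, PLG in orange, with a line at the group mean. Plat and Mrc2 sit at or near 0 in the untreated samples and at 1.22 FPKM or more with PLG, whereas F13a1 lies lower with PLG than without it.

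Of 3 tested activators and zymogen proteases 2 were higher and 1 lower. Ctsb, the gene of cathepsin B, a lysosomal protease that can activate pro-urokinase, went from 1161 ± 66.6 to 703 ± 45.0 FPKM (SD, n = 5 each; log2 fold change -0.72, limma adjusted p = 1.26e-07). St14, which encodes matriptase, was at 3.72 ± 0.445 and 4.45 ± 0.365 FPKM and lost its call in 12 of 22 alternatives, among them without any of untreated 1, 2 and 4 and PLG 2, 3, 4 and 5 (limma adjusted p = 0.0450, and 0.0182 to 0.199 over the alternatives). Of the 3 inhibitor genes that met the filter and are reported from their list, which is not complete, none was higher and 2 were lower. Under the filter, Serpini1 (limma adjusted p = 0.00353) and Serping1 (0.0278, with overlapping groups) were higher in the fit without it. In that fit 19.8% of 16927 genes were higher. Serping1 was near the floor, at 0.041 ± 0.0576 FPKM from 20 reads in untreated and 0.174 ± 0.0862 FPKM from 96 reads in PLG samples. Serpinb6a, an intracellular serpin gene, went from 15.5 ± 1.46 to 9.09 ± 1.65 FPKM, and Spint1, which encodes an inhibitor of membrane serine proteases, from 90.2 ± 6.29 to 74.0 ± 3.33 FPKM. Spint1 lost its call with scaling to a common sum (limma adjusted p = 0.0935). Among all tested genes 29.1% were higher and 31.3% lower. The counts of both lists describe the genes reported and not activators or inhibitors as a class.

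Integrin chains that bind plasminogen or sit beside the urokinase receptor divided. Of 8 tested surface protein genes 4 were higher and 3 lower, where 29.1% of all tested genes were higher and 31.3% lower. The 4 include Ruvbl1, which is not an integrin gene and whose groups overlapped. Itgam and Itgb2, the chains of the leukocyte integrin Mac-1, fell, Itgam from 38.2 ± 4.97 to 22.4 ± 3.81 FPKM and Itgb2 from 605 ± 26.5 to 387 ± 9.54 FPKM (SD, n = 5 each; limma adjusted p = 5.14e-05 and 2.26e-08). Itga5 and Itgb1, the chains of the fibronectin receptor, rose, Itga5 from 35.6 ± 2.46 to 83.4 ± 4.38 FPKM and Itgb1 from 127 ± 8.47 to 202 ± 7.31 FPKM (limma adjusted p = 3.14e-10 and 6.44e-08). Of the vitronectin receptor chains Itgav rose from 10.3 ± 0.579 to 16.5 ± 0.247 FPKM and Itgb3 fell from 8.42 ± 1.23 to 2.91 ± 0.394 FPKM. Groups did not overlap for any of these 6 genes, which the rule for naming genes required. Among all tested genes the groups lay apart for 47.2%. Hmgb1, a nuclear protein gene whose product binds plasminogen outside the cell, stood at 14.3 ± 1.37 FPKM in untreated and 12.6 ± 0.961 FPKM in PLG samples and did not pass (limma adjusted p = 0.0598), although it passed as lower in 6 of 23 alternatives, among them without untreated 3 (0.0420), untreated 4 (0.0280) or PLG 4 (0.0411).

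Receptors that clear activator and inhibitor complexes fell in part. Lrp1, which takes up urokinase bound to inhibitor and receptor, went from 127 ± 9.40 to 63.0 ± 6.14 FPKM (SD, n = 5 each; log2 fold change -1.001, limma adjusted p = 3.23e-08), where the value for Plau was -1.001. Igf2r, a binding partner of the urokinase receptor, went from 44.6 ± 2.73 to 22.4 ± 1.23 FPKM. Mrc2, which encodes the urokinase receptor-associated collagen receptor, rose from 0.045 ± 0.0594 to 2.58 ± 0.383 FPKM (limma adjusted p = 1.61e-09). Mrc2 met the filter through the PLG samples alone, which already required a difference. Lrpap1, the chaperone of the Lrp1 family, stood at 211 ± 5.90 FPKM in untreated and 219 ± 7.41 FPKM in PLG samples and did not pass (limma adjusted p = 0.278). Of 5 tested genes in this list 1 was higher and 3 were lower, where 29.1% of all tested genes were higher and 31.3% lower.

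Substrates and effectors of plasmin also went both ways, 4 of 9 tested genes rising and 5 falling, where 29.1% of all tested genes rose and 31.3% fell. Mmp9 and F13a1 met the filter through the samples of a single group, which already required a difference. The count is therefore no result about this class. Thbs1, the gene of thrombospondin 1, an activator of latent TGF-beta, went from 69.5 ± 6.74 to 484 ± 27.7 FPKM (log2 fold change 2.78, limma adjusted p = 6.07e-13). The gelatinase gene Mmp9 went from 0.414 ± 0.268 to 4.44 ± 0.760 FPKM and the growth factor gene Vegfa from 11.6 ± 1.81 to 25.03 ± 1.14 FPKM. F13a1, the transglutaminase subunit that cross-links fibrin, fell from 2.95 ± 0.754 to 0.554 ± 0.178 FPKM, the fibronectin gene Fn1 from 8.17 ± 2.90 to 2.94 ± 0.721 FPKM and Hgf, whose product needs proteolytic activation, from 5.01 ± 0.451 to 2.30 ± 0.189 FPKM. The macrophage elastase gene Mmp12 fell from 1164 to 774 FPKM and the collagenase gene Mmp13 rose from 63.7 to 116 FPKM in the group means. The groups of these 8 genes did not overlap (limma adjusted p = 1.07e-04 or smaller). The rule for naming genes required this, and Mmp12 and Mmp13 were named after their values were seen. Tgfb1, the other tested gene of this list, had overlapping groups (limma adjusted p = 0.0109). Among all tested genes the groups lay apart for 47.2%.

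The enolase paralogs rose more than Eno1 on the log2 scale, though from far lower levels. Eno2 went from 1.72 ± 0.375 to 2.68 ± 0.374 FPKM (SD, n = 5 each; log2 fold change 0.44, limma adjusted p = 0.00441) and Eno3 from 3.57 ± 0.320 to 5.51 ± 1.245 FPKM (0.49, limma adjusted p = 0.00455). PLG 2, at 3.52 FPKM of Eno3, lay within the untreated range. Eno1b, under the filter, was at 0.549 ± 0.138 FPKM in untreated and 1.01 ± 0.275 FPKM in PLG samples. Whether its reads belong to Eno1, from which it differs in few bases, was not tested.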

How the data were processed

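For each sample the authors deposited FPKM of protein-coding genes. GRCm38.p6 is the build in the submitters' processing notes, which list STAR 2.7.3a, cutadapt 2.10, DESeq2 1.24.0, featureCounts 2.0.0 and FastQC 0.11.9 without saying what each did. Whether strand was used, which annotation release was counted and how multiply matching reads were treated is not stated there. The gene length column is the authors' value in bases.

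Groups and replicate numbers came from the sample titles. Reads were recovered from the FPKM steps with a tolerance of 0.1 read, within which 100% of the values checked in each sample were whole. Depth limits low genes: 1 read on a gene of 1 kb equals 0.0141 to 0.0313 FPKM, and reads without molecular identifiers cover counting error only.

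Values were tested as log2(FPKM + 1) in limma 3.58.1 (R 4.3.3) with an intensity trend, treatment as the only term and a Benjamini-Hochberg threshold of 0.05; Serpine2 came from the fit without the filter. The model was tested on simulated data. Ratios were compared by exact permutation of 5 and 5 samples. Near-identical copies were sought with BLAST 2.17.0 in GENCODE M21 transcripts, and promoter windows came from RefSeq.

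The members and the gene lists were chosen with earlier results of these data known. Named genes of each list were up to 3 in each direction with the largest change and groups apart, up to 2 abundant genes that did not pass, the 3 most similar profiles of each member at a mean of at least 2 FPKM, and genes within 250 kb of Serpinb2. St14, Sorl1, Ruvbl1, Tgfb1, Mmp12, Mmp13, Eno3, Eno1b, F2rl1, Serpini1 and Serping1 were named after their values were seen. Alternatives were other pseudocounts, filters, scalings, variance models, voom on recovered reads, a replicate block and leaving out each sample. Some genes of this system, Plg among them, are not reported here.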

Additional observations from a re-analysis of the deposited data

Results flagged for a closer look

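In 92 sets of 5 samples, formed by each gene or ratio and group, 8 held a single sample far from the other 4, and chance gives about 1 in 20. None of the 8 members and none of the 5 ratios between them was among these. In untreated 3, Plat (0.089 FPKM) and F2rl1 (0.01 FPKM) were the only untreated values above 0. The same sample was lowest in Itgav (9.26 FPKM, others 10.4 to 10.6 FPKM) and Eno2 (1.07 FPKM, others 1.78 to 2.02 FPKM). Untreated 2 was highest in Serpinb8 (13.2 FPKM, others 8.45 to 9.76 FPKM). Untreated 5 was lowest in Tgfb1 (69.9 FPKM, others 84.0 to 86.1 FPKM). PLG 4 was highest in Itgb1 (214 FPKM, others 195 to 200.2 FPKM) and in Eno1b (1.49 FPKM, others 0.803 to 0.994 FPKM).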

How the results depend on the processing

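Plau, Plaur and Serpinb2 kept their direction and their call in all 23 alternatives, and Serpine2 in 21; filters on low values give it no other value. Genes higher with PLG numbered 2185 to 3360 and genes lower 2133 to 3649. The number of members called lower was 4 in place of 2 with quantile normalization, voom, removal of the repeat-like models before scaling, or without untreated 2, PLG 3 and PLG 4, the last 2 settings chosen after seeing the data, and 2 to 4 when 1 sample was left out (4 without untreated 2 or PLG 4). The added calls were Plgrkt (log2 fold changes -0.27, -0.21, -0.26 and -0.28 in that order) and S100a10 (-0.39, -0.19, -0.25 and -0.34). Leaving out 1 sample gave -0.24 to -0.14 for Plgrkt, -0.23 to -0.14 for S100a10 and 0.051 to 0.14 for Anxa2. Anxa2 passed with median-of-ratios scaling (0.14). With quantile normalization Anxa2 (-0.11), Eno1 (-0.077) and Lrpap1 (-0.18) changed sign, as did Lrpap1 (-0.013) after removal of the repeat-like models. Eno1 lost its call with a common sum (0.19) and with that removal (0.073); the cause was not tested. Other plasminogen system genes called higher numbered 7 in place of 13 with a filter of 5 FPKM, which tests fewer genes. Same-numbered samples correlated at -0.12 to 0.10 in their deviations from the group means, and only number 1 correlated best with its own. Such values show no clear pairs, but they cannot tell whether same-numbered samples shared a mouse, a culture or a day. With a replicate block 2797 genes were higher and 2988 lower and no member's call changed, while St14 lost its own (limma adjusted p = 0.0579). For ratios the block leaves 5 pairs and a smallest exact p of 0.0625, at which all 5 stood (differences -7.00, -3.90, -6.93, -0.41 and 0.28 for Plau to Serpinb2, to Serpine2, to their sum, to Plaur, and Anxa2 to S100a10).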

Other observations

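Some genes of the plasminogen system under the expression filter also differed, and they were picked after their values were seen. F2rl1, which encodes protease-activated receptor 2, a receptor that serine proteases switch on by cleavage, was listed at 0 in 4 untreated samples and at 0.141 to 0.655 FPKM with PLG (1 read over the untreated and 294 over the PLG samples, limma adjusted p = 5.80e-04 without the filter). Serpini1, the gene of the tissue activator inhibitor neuroserpin, was at 0 to 0.284 FPKM in untreated and 0.394 to 0.689 FPKM in PLG samples (limma adjusted p = 0.00353 without the filter). Both are low, and in that fit 39.9% of 16927 genes were called.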
